A study of Homo sapiens with 14 samples.

Results

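YAP, TAZ, TEAD and VGLL factors are the proteins that carry Hippo pathway output to DNA. The set held the genes YAP1 (YAP), WWTR1 (TAZ), TEAD1, TEAD2, TEAD3, TEAD4, VGLL3 and VGLL4, chosen as the listed symbols with a line in the deposited table, and all 8 were found among its 13734 genes. Total RNA was sequenced from MDA-MB-231, an established human breast cancer cell line of mesenchymal type, in 14 libraries forming 7 groups of 2. The series title points to the role of BET proteins in gene expression driven by YAP and TAZ. The groups were control siRNA, YAP/TAZ siRNA mix 1 and mix 2 (transfected 48 h before harvest), BRD siRNA mix A and mix B against the BRD genes (72 h), DMSO, and JQ1 at 1 µM for 24 h. All were grown from the same cell line in the same medium, and no harvest time was labelled for control siRNA or DMSO. The labels do not say that replicates came from separate cultures, so the p-values measure only the spread between these libraries, which may be technical. Both knockdowns were compared with the same 2 control siRNA libraries.

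In the Hippo pathway, kinases of the MST and LATS families phosphorylate YAP and TAZ, which holds them in the cytoplasm and marks them for breakdown. Unphosphorylated YAP and TAZ enter the nucleus and bind TEAD proteins, which hold the DNA-binding domain that the co-activators lack. VGLL proteins also bind TEADs through short motifs. VGLL4 competes with YAP and TAZ there, and VGLL3 is a co-factor of TEADs in mesenchymal cells. BET proteins read acetylated histones, and JQ1 displaces them from acetylated lysines.

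YAP1 and VGLL3 lay furthest apart in their response to JQ1, so the promoter of each is shown, from 250 bases before to 50 after the start site. The sequences are from RefSeq on GRCh38.p14, 5′ to 3′ on the gene's strand. YAP1 lies at chr11:102110197-102110496 (+) and VGLL3 at chr3:86991100-86991399 (-). The capitals mark GGAATG, the core letters of the TEAD motif.
YAP1: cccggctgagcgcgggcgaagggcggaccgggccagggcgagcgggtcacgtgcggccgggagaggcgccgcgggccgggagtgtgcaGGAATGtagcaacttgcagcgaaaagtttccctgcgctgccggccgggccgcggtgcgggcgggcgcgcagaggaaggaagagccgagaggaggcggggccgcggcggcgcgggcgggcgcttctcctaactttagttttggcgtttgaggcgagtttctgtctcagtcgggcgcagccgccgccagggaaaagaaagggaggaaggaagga
VGLL3: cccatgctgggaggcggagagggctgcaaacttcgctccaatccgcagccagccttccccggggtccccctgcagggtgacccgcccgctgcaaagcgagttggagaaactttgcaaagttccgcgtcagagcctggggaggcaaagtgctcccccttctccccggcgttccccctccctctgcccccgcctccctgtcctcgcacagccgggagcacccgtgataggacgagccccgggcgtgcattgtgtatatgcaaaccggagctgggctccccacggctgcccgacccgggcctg
RefSeq promoters were matched for 6 of the 8 genes, with 12 windows in all because some genes have several start sites. GGAATG, searched on both strands, was found in 1 of the 12, at bases 89 to 94 of the YAP1 window, where the match begins at position -162 from the start site. TGANTCA, the AP-1 motif, was found in none. Among 35116 promoters of 300 bases, 14.03% held GGAATG and 7.71% held TGANTCA. No match overlapped another. A match is only a match of letters.

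Depth was 15741695 to 37311326 reads in genes per library (median 23539829). Levels are given as scaled RPM, reads relative to a library size that the authors adjusted. Changes are log2 fold changes on the log2(scaled RPM + 1) scale, which understates changes of low genes, and a gene was called at a limma adjusted p under 0.05. After BRD siRNA, BRD3 fell by 1.58 and BRD2 fell by 0.53. Of 7 mesenchymal markers 6 were in the table, with a summed level of 6432 to 6471 in control siRNA, 4466 to 4688 in YAP/TAZ mix 1, 6091 to 6393 in mix 2, 5628 to 7287 after BRD siRNA, 8103 to 8170 in DMSO and 10580 to 10619 in JQ1. AXL, a mesenchymal marker that is also among the YAP/TAZ target genes below, averaged 1450 in control siRNA, 365 in YAP/TAZ mix 1 and 706 in mix 2. VIM averaged 3418, 3067 and 4047 in these groups. Of 13 luminal epithelial markers 10 were measured, and ESR1, PGR and CDH1 were not analysed here. The summed luminal level was 1289 to 1354 in control siRNA, 2337 to 2497 after YAP/TAZ siRNA, 1247 to 1609 after BRD siRNA, 1414 to 1416 in DMSO and 5395 to 5873 in JQ1. In JQ1 it was mostly KRT8 (mean 2145), KRT18 (1660) and KRT19 (1787), while EPCAM (-1.29) and SPDEF (-2.11) fell. After JQ1 5 luminal markers were higher, 2 lower and 3 not called. The mesenchymal sum in JQ1 was mostly VIM (6583) and AXL (2305), with 2 markers higher, 3 lower and 1 not called. Among all genes 37.6% were higher and 36.3% lower. The leukocyte list had 3 of 6 measured, all called higher after YAP/TAZ siRNA, with sums of 66.9 to 68.6 in control siRNA, 122 to 180.0 after YAP/TAZ siRNA, 37.8 to 42.5 after BRD siRNA, 69.3 to 70.6 in DMSO and 78.8 to 82.5 in JQ1. The fibroblast and endothelial list had 2 of 6, both called higher after YAP/TAZ siRNA, with sums of 4.96 to 5.42 in control siRNA, 21.6 to 26.6 after YAP/TAZ siRNA, 1.49 to 7.82 after BRD siRNA, 1.82 to 2.35 in DMSO and 2.81 to 2.88 in JQ1. The leukocyte sum was mostly CD68, with means of 60.9 in control siRNA, 94.5 in YAP/TAZ mix 1 and 142 in mix 2. Over both YAP/TAZ mixes 8 luminal markers were higher, 0 lower and 2 not called. For the mesenchymal markers it was 1 higher, 4 lower and 1 not called. Among all genes 43.1% were higher and 35.9% lower after YAP/TAZ siRNA. The part of these markers in the results on the factors was not tested.

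All 8 factors were called after YAP/TAZ siRNA, but YAP1 and WWTR1 are its targets, so their falls are no finding about the set. YAP1, WWTR1, TEAD4 and VGLL3 were lower, while TEAD1, TEAD2, TEAD3 and VGLL4 were higher. VGLL4 moved in opposite directions with the mixes, and VGLL3 was not called with mix 2. Among the 13674 genes tested, 43.1% were called higher and 35.9% lower, so a call was the usual outcome for a gene. After BRD siRNA 2 factors were higher (VGLL3 and VGLL4), 3 lower (YAP1, TEAD2 and TEAD4) and 3 not called, against 37.6% higher and 37.6% lower in the background. After JQ1 2 were higher (TEAD3 and VGLL3), 4 lower (YAP1, WWTR1, TEAD2 and TEAD4) and 2 not called, against 37.6% higher and 36.3% lower. The median change over the 8 was -0.15 after YAP/TAZ siRNA (its targets included), -0.09 after BRD siRNA and -0.19 after JQ1. Over all genes tested it was 0.07, -0.00 and 0.01.

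**Figure D1:**
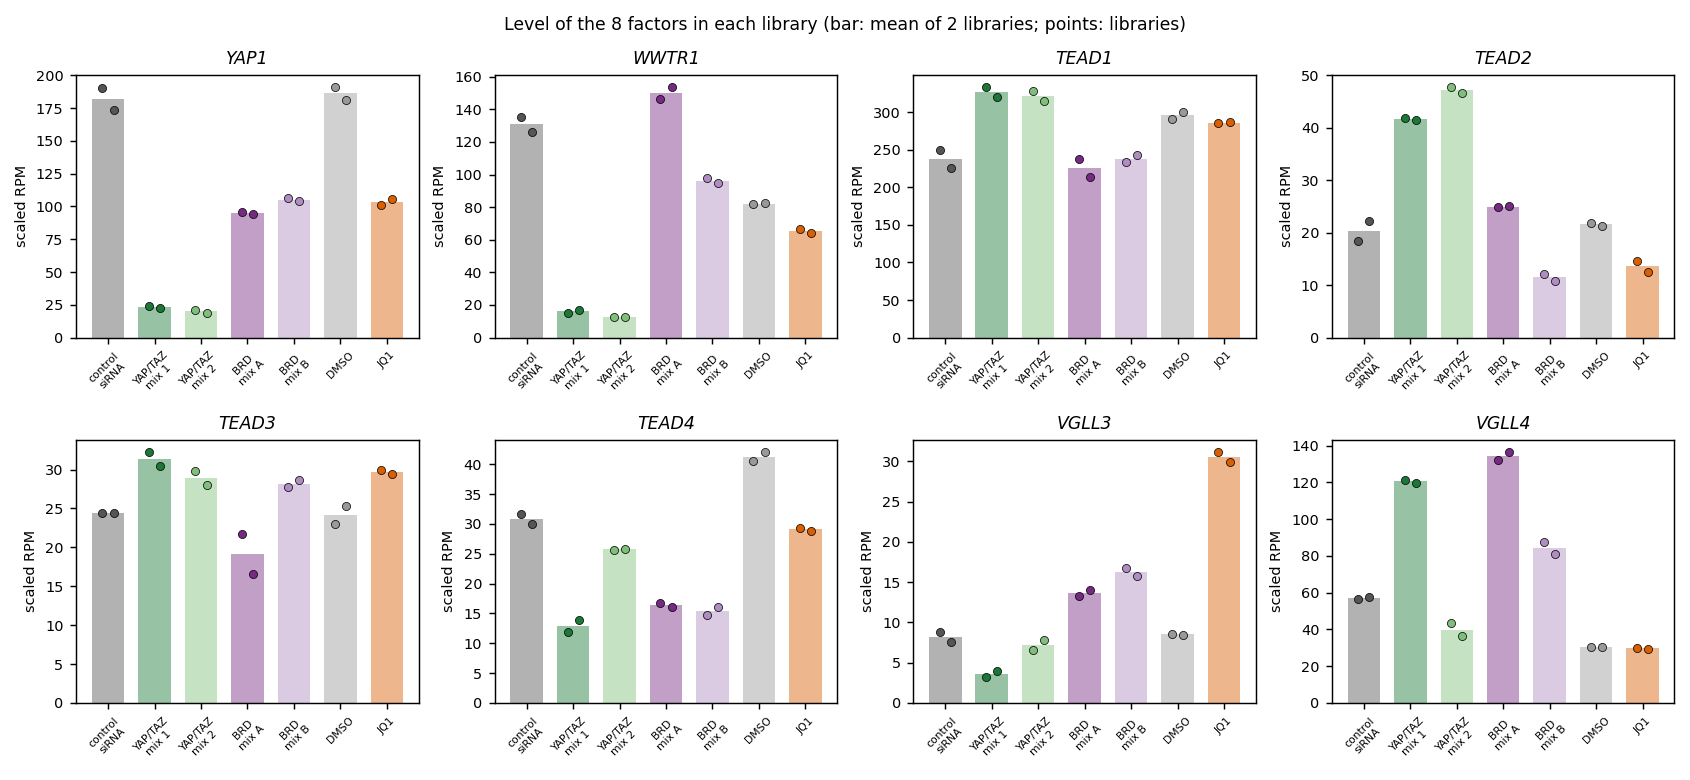
Levels of the 8 factors in scaled RPM (vertical axes from 0) in the 7 groups; bars are means of 2 libraries and points are single libraries. YAP1 sat at 94.5 to 106 in the BRD siRNA and JQ1 libraries and at 174 to 191 in both control groups, while VGLL3 was highest in JQ1.

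YAP1, the co-activator named in the siRNA target, also fell when BET proteins were acted on. Its levels were 190.0 and 174 with control siRNA, 24.2 and 22.4 with YAP/TAZ siRNA mix 1, and 21.3 and 18.6 with mix 2. The 4 knockdown libraries lay close together and far below both controls. In such bulk RNA, fewer cells that express a gene and less RNA per cell cannot be told apart. BRD siRNA gave 96.1 and 94.5 with mix A and 106.1 and 104.5 with mix B. DMSO gave 191 and 181, and JQ1 gave 101.5 and 105.4. No BRD siRNA or JQ1 library reached any control library, and the DMSO and control siRNA ranges overlapped. The changes were -3.02 (SE 0.0579, limma adjusted p = 5.57e-20) after YAP/TAZ siRNA, -0.85 (SE 0.0579, adjusted p = 2.57e-11) after BRD siRNA and -0.84 (SE 0.0668, adjusted p = 3.36e-10) after JQ1. The JQ1 change minus the BRD siRNA change was 0.01 (SE 0.0884, adjusted p = 0.915), so any difference between them was not detectable with these libraries. Each BRD mix alone gave a fall, of -0.92 with mix A and -0.78 with mix B.

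WWTR1 encodes TAZ, the paralog of YAP, and its mRNA moved in opposite directions with the BRD mixes. With control siRNA it was at 135 and 126, with YAP/TAZ siRNA mix 1 at 15.3 and 17.2, and with mix 2 at 12.8 and 12.7. As for YAP1, the knockdown libraries were all far below the controls (-3.10, SE 0.0558, limma adjusted p = 2.87e-20). BRD mix A gave 147 and 154, above both controls, and mix B gave 98.1 and 94.6, below both. Over both BRD mixes the change was -0.12 (SE 0.0558, adjusted p = 0.0582) and was not called. It was called without control siRNA replicate 2 (-0.17, adjusted p = 0.0369) or mix A replicate 2 (-0.14, adjusted p = 0.0409), and with edgeR (-0.12, adjusted p = 0.0372) or DESeq2 (-0.14, adjusted p = 0.0362). Alone, mix A gave 0.20 (adjusted p = 0.00935) and mix B gave -0.44 (adjusted p = 3.88e-06). Against DMSO in place of control siRNA the BRD change turned to 0.55. DMSO gave 81.8 and 82.3 and JQ1 gave 66.5 and 63.9, again without overlap, a fall of -0.33 (SE 0.0644, adjusted p = 0.000115).

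The ratio of WWTR1 to YAP1 reads within a library needs no scaling and is compared here between libraries, not between the genes. It was 0.712 and 0.727 with control siRNA and 0.603 to 0.768 over the 4 YAP/TAZ siRNA libraries. With BRD mix A it was 1.53 and 1.63, and with mix B 0.924 and 0.905. In DMSO it was 0.428 and 0.454, and in JQ1 0.655 and 0.606. The ratio was thus higher in all 4 BRD libraries than in both controls (exact permutation p = 0.133, two-sided; the smallest possible is 0.0667). JQ1 was above DMSO by 1.43-fold (exact permutation p = 0.333, the smallest possible). YAP/TAZ siRNA and control siRNA overlapped (exact permutation p = 0.4). None of these designs can reach 0.05.

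TEAD1 rose after YAP/TAZ siRNA and was not called in either BET comparison. This DNA-binding factor stood at 249.8 and 225 in control siRNA, 333 and 320.0 in YAP/TAZ mix 1 and 328 and 314 in mix 2. The 4 knockdown libraries were all above the controls (0.45, SE 0.0528, limma adjusted p = 1.27e-07), though against DMSO the rise shrank to 0.13 (adjusted p = 0.0258). BRD mix A gave 238 and 214 and mix B 233 and 243, overlapping the controls (-0.03, SE 0.0528, adjusted p = 0.564; 0.04 without control siRNA replicate 1). DMSO gave 291 and 300.2 and JQ1 gave 285 and 286 (-0.05, SE 0.0609, adjusted p = 0.489). The JQ1 libraries lay just below the DMSO libraries. Against DMSO, BRD siRNA was at -0.35 (adjusted p = 3.75e-06).

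TEAD2 showed the largest rise of the 8 after YAP/TAZ siRNA. It measured 18.3 and 22.2 in control siRNA, 41.9 and 41.4 in mix 1 and 47.8 and 46.6 in mix 2, a change of 1.10 (SE 0.0792, limma adjusted p = 5.55e-11). Every knockdown library was well above both controls. The BRD mixes divided: mix A gave 24.9 and 25.05, above the controls, and mix B gave 12.2 and 10.8, below them. Their mean change of -0.23 (SE 0.0792, adjusted p = 0.0119) was therefore no common response, with 0.30 for mix A and -0.76 for mix B. It was -0.10 and not called without control siRNA replicate 2 (adjusted p = 0.328), and -0.36 without replicate 1. With quantile normalization it was not called either (-0.16, adjusted p = 0.0678). TEAD2 fell from 21.9 and 21.3 in DMSO to 14.6 and 12.6 in JQ1 (-0.64, SE 0.0915, adjusted p = 2.47e-06). TEAD2 was thus lower with mix B and JQ1 than in their controls, and higher with mix A.

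TEAD3 rose modestly after YAP/TAZ siRNA and after JQ1. It was at 24.4 in both control siRNA libraries, at 32.2 and 30.5 in YAP/TAZ mix 1 and at 29.9 and 28.0 in mix 2, all above the controls (0.29, SE 0.0814, limma adjusted p = 0.00259). BRD mix A gave 21.8 and 16.6 and mix B gave 27.8 and 28.6, on either side of the controls, and the mean change was -0.07 (SE 0.0814, adjusted p = 0.447). The 2 mix A libraries differed from each other more than other TEAD3 pairs: without replicate 1 the BRD change was called (-0.16, adjusted p = 0.0365), and without replicate 2 it was 0.02 (adjusted p = 0.767). DMSO gave 23.0 and 25.3 and JQ1 gave 29.9 and 29.4, with no overlap (0.28, SE 0.094, adjusted p = 0.00988). That call was lost without DMSO replicate 1 (0.22, adjusted p = 0.103) or JQ1 replicate 1 (0.27, adjusted p = 0.0515).

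TEAD4 fell in all 3 main comparisons, unlike the other TEADs. Control siRNA gave 31.7 and 29.98. YAP/TAZ mix 1 gave 11.9 and 13.97, and mix 2 gave 25.7 and 25.8. Both mixes were below the controls, mix 1 much more so: -1.20 with mix 1 and -0.25 with mix 2 (adjusted p = 0.00915), for a mean of -0.72 (SE 0.0717, limma adjusted p = 8.87e-09). Against DMSO the mean was -1.13. BRD mix A (16.8 and 16.0) and mix B (14.8 and 16.1) lay together and below both controls, a fall of -0.91 (SE 0.0717, adjusted p = 2.75e-10). DMSO gave 40.5 and 42.0, the highest TEAD4 levels, and JQ1 gave 29.3 and 28.9 (-0.49, SE 0.0828, adjusted p = 2.01e-05). The JQ1 libraries were close to control siRNA, since DMSO itself was above control siRNA by 0.41 (adjusted p = 0.000309).

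Within a library, reads of TEAD4 relative to TEAD1 were 0.127 and 0.133 with control siRNA and 0.0635 to 0.0747 over the 4 BRD siRNA libraries. The groups did not overlap (exact permutation p = 0.0667, two-sided, the smallest possible). After YAP/TAZ siRNA this ratio was 0.0356 to 0.0821, also below the controls (exact permutation p = 0.133). For TEAD2 relative to TEAD1 the ratio was 0.0734 and 0.0986 with control siRNA and 0.126 to 0.148 after YAP/TAZ siRNA (exact permutation p = 0.0667). Every YAP/TAZ siRNA library had less TEAD4 and more TEAD2 per TEAD1 read than both controls. In 15 such tests of 5 gene pairs, no p could pass 0.05 by design.

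VGLL3 was the lowest of the 8 factors per exon length and had the largest change with JQ1. Control siRNA gave 8.79 and 7.52, YAP/TAZ mix 1 3.24 and 3.96, and mix 2 6.54 and 7.76. Only mix 1 was clear of the controls: the mean change was -0.58 (SE 0.093, limma adjusted p = 8.43e-06), with -0.99 for mix 1 and -0.17 for mix 2 (adjusted p = 0.155, not called). BRD mix A gave 13.3 and 13.98 and mix B 16.8 and 15.8, all above the controls (0.80, SE 0.093, adjusted p = 1.18e-07). DMSO gave 8.59 and 8.48 and JQ1 gave 31.1 and 29.9, a 3.31-fold rise on that scale (1.72, SE 0.107, adjusted p = 6.62e-12). JQ1 therefore exceeded every other library. Its rise was larger than that with BRD siRNA by 0.92 (SE 0.142, adjusted p = 1.12e-05). These levels rested on 80 to 852 reads per library.

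VGLL4, which competes with YAP and TAZ for TEADs, separated the YAP/TAZ mixes more than any other factor. With control siRNA it was at 56.4 and 57.8, with YAP/TAZ mix 1 at 121 and 119.7, and with mix 2 at 43.3 and 36.3. Mix 1 was above the controls and mix 2 below them. The mean change of 0.27 (SE 0.0608, limma adjusted p = 0.000355) joins a rise of 1.06 with mix 1 (adjusted p = 1.69e-11) and a fall of -0.52 with mix 2 (adjusted p = 9.99e-07). Against DMSO the mean was 1.15. BRD mix A gave 132 and 136 and mix B 87.8 and 81.3, all above the controls (0.89, SE 0.0608, adjusted p = 3.02e-11), with 1.22 for mix A and 0.56 for mix B. Against DMSO this rise was 1.77. DMSO gave 30.7 and 30.5 and JQ1 30.1 and 29.5, the lowest VGLL4 levels (-0.04, SE 0.0703, adjusted p = 0.637). VGLL4 thus changed with BRD siRNA and was not called with JQ1, and the changes differed by -0.93 (SE 0.0929, adjusted p = 3.82e-08).

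VGLL4 shares 1596 bases, 22.1% of its exon bases, with ATG7, an autophagy gene on the opposite strand (GENCODE 29, GRCh38). The sources used here do not give the strand setting of the authors' counting, so how reads in the shared bases were counted is not known. ATG7 ranged from 35.7 to 80.4. It changed by 0.75 (limma adjusted p = 1.33e-10) after BRD siRNA, by 0.88 with mix A and 0.62 with mix B. After YAP/TAZ siRNA it was at -0.25 with mix 1 and -0.19 with mix 2, where VGLL4 was at 1.06 and -0.52. Its part in the VGLL4 values was not tested. Other factors with exons on the opposite strand of another gene were YAP1 (9.97% of bases), WWTR1 (9.45%) and TEAD2 (10.7%), and those partner genes were not analysed here.

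**Figure D2:**
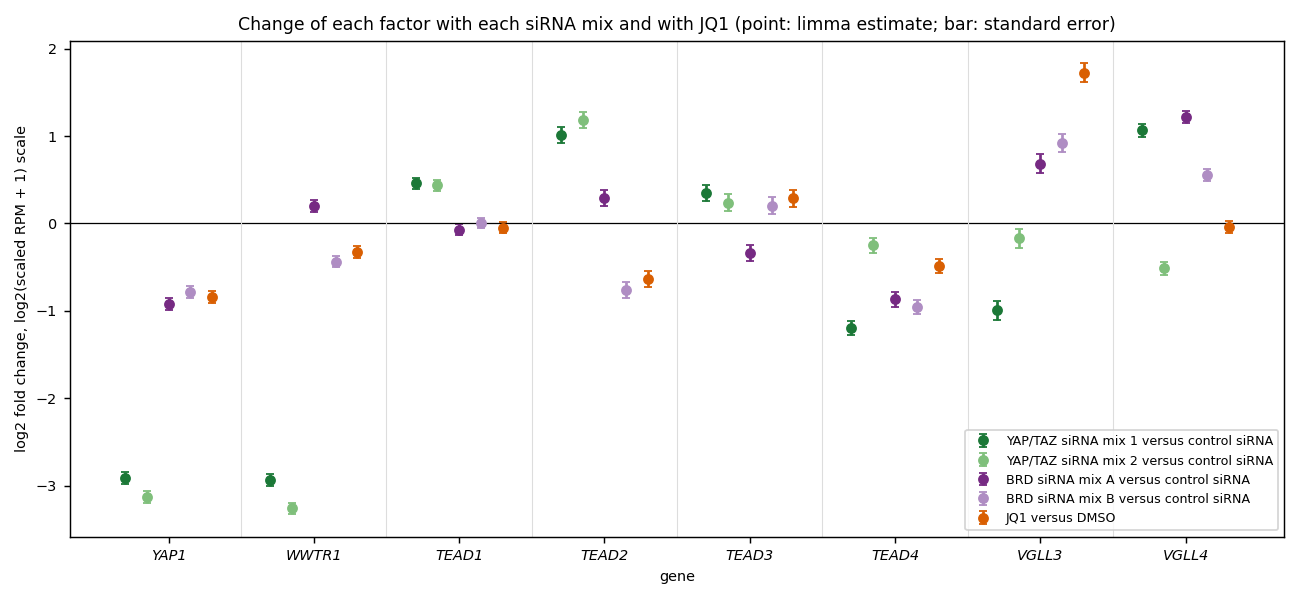
Log2 fold change of each factor (limma estimate, bar: standard error) with each siRNA mix against control siRNA and with JQ1 against DMSO. The mixes lie on opposite sides of 0 for VGLL4 (YAP/TAZ siRNA) and for WWTR1, TEAD1, TEAD2 and TEAD3 (BRD siRNA; TEAD1 is close to 0 and called with neither mix), while YAP1 and TEAD4 are below 0 in every contrast shown.

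With each mix set alone against control siRNA, YAP/TAZ mix 1 called 8 of 8 factors (background 74.3% of genes in either direction) and mix 2 called 7 (78.4%). The siRNA targets YAP1 and WWTR1 are among these. BRD mix A called 7 (73.3%) and mix B 6 (70.8%). Between YAP/TAZ mix 1 and mix 2, 5 factors differed, against 65.7% of all genes: VGLL4 (1.58), TEAD4 (-0.95), VGLL3 (-0.83), WWTR1 (0.33) and YAP1 (0.22). The YAP1 difference was lost without mix 1 replicate 1 (0.16, limma adjusted p = 0.097) or mix 2 replicate 2 (0.13, adjusted p = 0.164). Between BRD mix A and mix B, 4 differed, against 50.0%: TEAD2 (1.06), VGLL4 (0.66), WWTR1 (0.63) and TEAD3 (-0.54, or -0.36 without mix A replicate 2). YAP1 (-0.14, adjusted p = 0.0838), TEAD4 (0.08, adjusted p = 0.423) and VGLL3 (-0.24, adjusted p = 0.0717) were not called between the BRD mixes.

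BRD siRNA and JQ1 act on BET proteins at the mRNA and the protein level, at 72 h and 24 h. Their changes differed for 6 of the 8 factors, against 60.1% of all genes. VGLL3 (0.92), TEAD4 (0.42) and TEAD3 (0.35) were higher in JQ1 relative to BRD siRNA, and VGLL4 (-0.93), TEAD2 (-0.40) and WWTR1 (-0.21, limma adjusted p = 0.0417) were lower. YAP1 and TEAD1 (-0.01, adjusted p = 0.893) were not called. Single libraries decided some of these calls. The TEAD2 difference lost its call without control siRNA replicate 1 (-0.27, adjusted p = 0.0619) or JQ1 replicate 2 (-0.30, adjusted p = 0.0603), and TEAD3 without DMSO replicate 1 (0.29, adjusted p = 0.0951) or JQ1 replicate 1 (0.34, adjusted p = 0.0566). The WWTR1 difference lost its call without control siRNA replicate 2 (-0.16), mix A replicate 2 (-0.19), mix B replicate 1 (-0.19), or any of DMSO replicate 1 (-0.21), DMSO replicate 2 (-0.20), JQ1 replicate 1 (-0.24) and JQ1 replicate 2 (-0.18). DMSO and control siRNA themselves differed for 4 of the 8 factors (54.2% of all genes): VGLL4 (-0.88), WWTR1 (-0.67), TEAD4 (0.41) and TEAD1 (0.32).

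Divided by exon length, levels can be ordered between genes. In control siRNA, scaled RPM per kb of exon was 28.9 for YAP1, 23.1 for TEAD1, 15.6 for WWTR1, 13.6 for TEAD4, 7.999 for TEAD3, 7.89 for VGLL4, 6.80 for TEAD2 and 0.642 for VGLL3. TEAD3 (7.995 to 8.003) and VGLL4 (7.79 to 7.99) did not overlap, but the highest VGLL4 library lay just below the lowest TEAD3 library. TEAD2 (6.15 to 7.45) was below both. TEAD1 led in both YAP/TAZ mixes, both BRD mixes and JQ1 on this scale. In DMSO, YAP1 (28.8 to 30.3) and TEAD1 (28.3 to 29.2) overlapped. After YAP/TAZ siRNA, TEAD2 stood at 13.98 and 15.8 per kb in mix 1 and mix 2, the third and the second in order, where it had been the seventh in control siRNA. VGLL3 was last in all 7 groups, rising to 2.40 per kb in JQ1. With the longest transcript as the length, VGLL4 moved to the first place in BRD mix A (36.1 per kb) and TEAD1 to the third (26.7 per kb), so close positions depend on the length used.

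**Figure D3:**
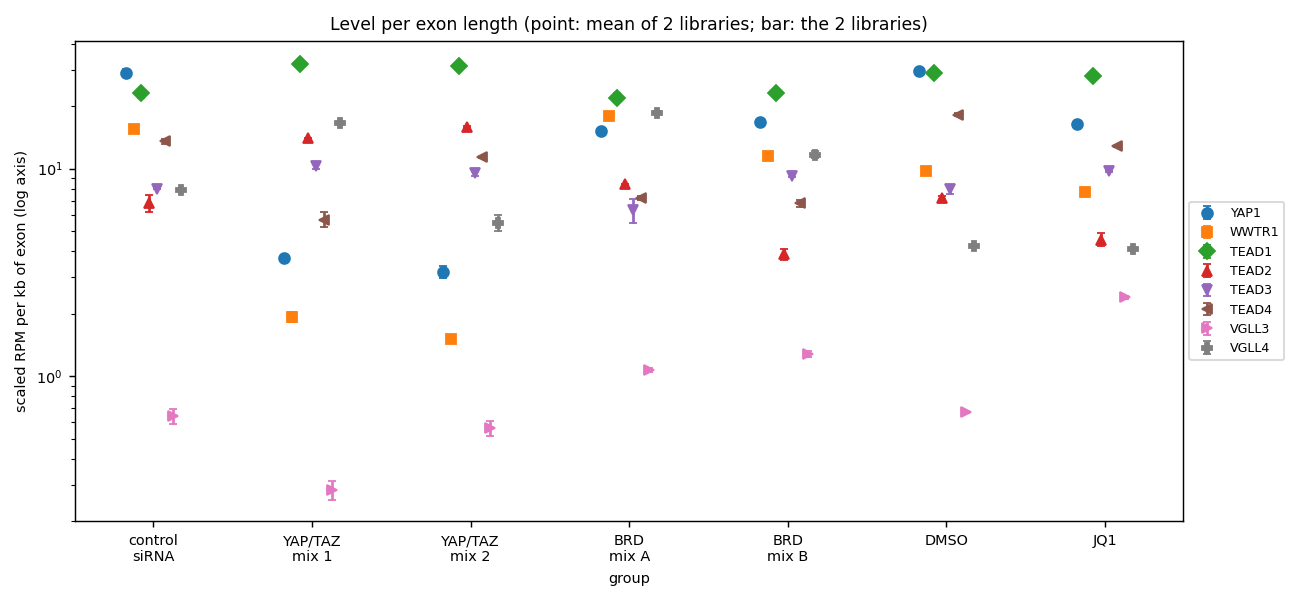
Level per exon length (scaled RPM per kb of exon, log axis) in the 7 groups; points are means of 2 libraries and bars span both libraries. YAP1 and WWTR1 drop to 3.70 and 1.93 in YAP/TAZ mix 1, below all TEADs, and VGLL3 is lowest in every group.

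Genes with the most similar pattern to each factor over the 14 libraries were ranked by Pearson r of log2(scaled RPM + 1) among 10775 genes. Libraries of a group share their treatment, so these values describe this table only. For YAP1 they were EHD4 (0.988), XPO5 (0.981) and RRP12 (0.980). For WWTR1 they were ANKRD33B (0.984), WDFY1 (0.980) and PRKAA1 (0.976). TEAD1 was nearest to APC (0.936), CAMKK1 (0.925) and FAM213A (0.918). TEAD2 was nearest to MAMDC2 (0.968), CNPPD1 (0.965) and KIAA1598 (0.961), and TEAD3 to RCOR3 (0.908), WBP2 (0.908) and FITM2 (0.899). TEAD4 was nearest to PSIP1 (0.973), LSM2 (0.971) and SMYD4 (0.963). VGLL3 was nearest to TXNRD3 (0.969), TLN2 (0.968) and FAM120AOS (0.968), and VGLL4 to SUN2 (0.981), CLIP4 (0.973) and PMAIP1 (0.971). No factor was among the 3 nearest genes of another.

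The Hippo pathway beyond the 8 factors was described with a list of 32 other genes, not all of them upstream. Of these 29 were measured (VGLL1, VGLL2 and AMOT were not analysed here). After YAP/TAZ siRNA 6 were higher, 19 lower and 4 not called, where 43.1% of all genes were higher and 35.9% lower (median -0.34, all genes 0.07). AMOTL2, an angiomotin that binds YAP (-1.99), and AJUBA, a LIM protein that inhibits LATS kinases (-0.94), fell, while STRN3, a striatin of the phosphatase complex that acts on MST kinases (0.64), and the kinase TAOK2 (0.58) rose. After BRD siRNA 18 were higher, 4 lower and 7 not called, against 37.6% higher and 37.6% lower among all genes (median 0.20, all genes -0.00). TAOK2 (0.81) and WWC3 (0.69, with 0.42 in mix B) rose, and the kinase LATS1 (-0.71) and RASSF1 (-0.85), a scaffold of MST kinases, fell. After JQ1 12 were higher, 9 lower and 8 not called, near the background of 37.6% higher and 36.3% lower (median 0.00, all genes 0.01), with TAOK2 (0.88) and AJUBA (0.83) higher and RASSF1 (-1.21) and the kinase MAP4K4 (-0.58) lower. The siRNA counts above are over both mixes. YAP/TAZ mix 1 alone had 4 higher, 15 lower and 10 not called, and mix 2 had 6, 17 and 6. BRD mix A alone had 20 higher, 7 lower and 2 not called, and mix B had 16, 6 and 7. The shares of all genes called were 74.3%, 78.4%, 73.3% and 70.8%. BTRC (0.87 with BRD mix A, -0.46 with mix B), FRMD6 (-0.33, 0.76) and MOB1A (0.21, -0.29) were called in opposite directions. So were LATS2 (-0.17, 0.35), WWC2 (-0.48, 0.26) and YWHAQ (0.24, -0.18).

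**Figure D4:**
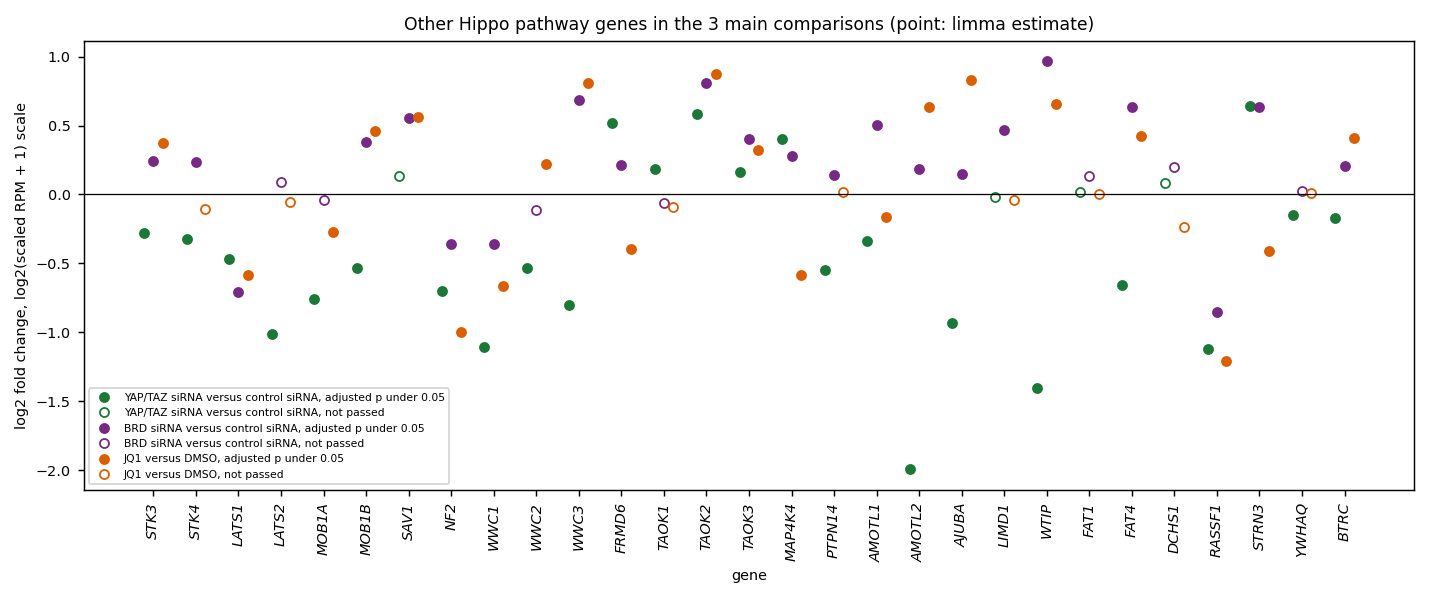
Log2 fold change (limma estimate) of the 29 other Hippo pathway genes in the 3 main comparisons; filled points have an adjusted p under 0.05. After YAP/TAZ siRNA 19 lie below 0 and are called, while after BRD siRNA 18 are called above 0, each over both mixes.

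YAP/TAZ target genes, 23 of 23 measured, are the readout of the factors. After YAP/TAZ siRNA 2 were higher, 18 lower and 3 not called, against 43.1% higher and 35.9% lower among all genes (median -1.01, all genes 0.07). CYR61 (-3.73), ANKRD1 (-4.42) and CTGF (-3.84) fell, while NT5E rose (0.67). With mix 1 and mix 2 alone CYR61 was at -4.55 and -2.92, ANKRD1 at -5.06 and -3.78, and CTGF at -4.77 and -2.90. Between the mixes 7 targets were higher and 14 lower in mix 1, against 65.7% of all genes called in either direction. RBMS3 was called higher over both mixes (0.27), but it was lower with mix 1 (-0.22, limma adjusted p = 0.0105) and higher with mix 2 (0.76, adjusted p = 4.53e-09). After BRD siRNA 10 were higher, 8 lower and 5 not called, near the background of 37.6% each way (median 0.11, all genes -0.00). NT5E (2.06) and CTGF (1.42; mix A alone 0.66, mix B alone 2.19) rose, and BIRC5 (-1.27) and TGFB2 (-0.98, with -0.61 in mix A) fell. With BRD mix A alone 10 targets were higher, 9 lower and 4 not called, and with mix B 12, 6 and 5. The shares of all genes called were 73.3% and 70.8%. F3 (-0.61 with mix A, 0.67 with mix B) and LATS2 (-0.17, 0.35) were called in opposite directions. After JQ1 10 were higher, 6 lower and 7 not called, where the background was 37.6% higher and 36.3% lower (median 0.02, all genes 0.01). CTGF (2.28) and ANKRD1 (1.26) rose, and FJX1 (-2.53) and BIRC5 (-2.38) fell. YAP1 mRNA was lower and CTGF mRNA higher in both BET comparisons, each against its own control. CTGF was also higher in DMSO than in control siRNA (1.06, limma adjusted p = 1.17e-10), and its mean with BRD mix A (304) lay below DMSO (404). CYR61 was not called with BRD mix A (-0.04, adjusted p = 0.507). Between DMSO and control siRNA 13 targets were higher, 4 lower and 6 not called, against 54.2% of all genes called in either direction. AMOTL2, LATS2 and PTPN14 stand in both the Hippo pathway list and the target list, and AXL is both a target and a mesenchymal marker.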

How the data were processed

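RNA-seq libraries of MDA-MB-231 cells depleted of ribosomal RNA were made with a stranded kit, per the labels' protocols. Build hg19, R 3.0.0, edgeR, HTSeq 0.6.0, TopHat2 2.0.5 and CASAVA 1.8.4 are listed in the submitters' processing notes. Their order, the annotation and the counting strand were not given in the sources used here. A scaled signal per gene and library was deposited by the authors. The plan assumed CPM, but the columns sum to 903627 to 1098052, so the values were treated as scaled RPM. They were whole multiples of what 1 read is worth (0.0276 to 0.0602) for 100% of values at a tolerance of 0.01, which gave back whole reads, and replicate pairs were not copies of each other.

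Sample titles gave groups and replicate numbers. One limma 3.58.1 model (R 4.3.3) with 7 group means and a variance trend was fitted to log2(value + 1) for the 13674 genes at 1 or more in at least 2 libraries, with two-sided tests and Benjamini-Hochberg adjustment over all of them. Ratios within libraries were tested by exact permutation. The fits were tested on simulated data. Alternatives were pseudocounts of 0.25 and 4, other filters and scalings, a replicate block, no trend, fewer libraries, edgeR 4.0.16 quasi-likelihood and DESeq2 1.42.0 on the recovered reads, each mix alone, DMSO as control, and each library left out.

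The text names the 8 factors, CTGF, CYR61 and ANKRD1, BRD2 and BRD3, for the Hippo pathway and YAP/TAZ target lists and each main comparison the 2 called genes with the largest positive and the 2 with the largest negative moderated statistic, and for each factor the 3 genes with the highest Pearson r. ATG7 was added after its overlap with VGLL4 was seen. BTRC, FRMD6, MOB1A, LATS2, WWC2, YWHAQ, F3 and single marker genes were also named outside this rule, from their values. The members and the gene lists were chosen with earlier results of these data known. Exon lengths and overlaps came from GENCODE 29 (GRCh38), with no coordinates carried over to the authors' build. Promoters came from RefSeq.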

Additional observations from a re-analysis of the deposited data

Results flagged for a closer look

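The YAP/TAZ mixes moved VGLL4 in opposite directions, 1.06 with mix 1 and -0.52 with mix 2, and the difference between the mixes was 1.58 (limma adjusted p = 5.2e-14). The BRD mixes moved 3 factors in opposite directions. WWTR1 was at 0.20 with mix A and -0.44 with mix B, a difference of 0.63 (adjusted p = 6e-08). TEAD2 was at 0.30 and -0.76, a difference of 1.06 (adjusted p = 5.92e-09). TEAD3 was at -0.34 and 0.20, a difference of -0.54 (adjusted p = 5.88e-05), and its mix B value was not called alone. Between JQ1 and BRD siRNA, TEAD3 was at 0.28 and -0.07, a difference of 0.35 (adjusted p = 0.0185), and VGLL4 at -0.04 and 0.89, a difference of -0.93 (adjusted p = 3.82e-08). All were picked out because effects of opposite sign differed by a test of the difference itself.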

How the results depend on the processing

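Over the alternatives, values of single factors kept their direction and side of the threshold in 949 cases, changed sign in 35, lost a call in 21 and gained one in 19. Counts of genes or factors called stayed within 1.5 times in 376 cases and moved further in 8. Signs turned for VGLL4 after YAP/TAZ siRNA with mix 2 alone (-0.52), and after BRD siRNA with mix A alone for WWTR1 (0.20) and TEAD2 (0.30), with mix B alone for TEAD1 (0.0035) and TEAD3 (0.20), and against DMSO for WWTR1 (0.55). With scaling by upper quartiles they turned for VGLL4 after JQ1 (0.00479), YAP1 in DMSO against control siRNA (-0.00884), TEAD1 between the YAP/TAZ mixes (-0.00612) and TEAD1 in JQ1 minus BRD siRNA (0.0697). With quantile normalization they turned for TEAD1 after JQ1 (0.0384), YAP1 in DMSO (-0.0706), TEAD1 between the YAP/TAZ mixes (-0.0700) and TEAD1 in JQ1 minus BRD siRNA (0.16). Median-ratio scaling and DESeq2 turned TEAD3 in DMSO (0.00186 and 0.00272) and YAP1 in JQ1 minus BRD siRNA (-0.0132 and -0.0092). All of these, apart from the values of a single mix for VGLL4, WWTR1 and TEAD2 and the value against DMSO, were not called.

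Leaving out single libraries gave ranges across 0 for TEAD1 (-0.108 to 0.0397) and TEAD3 (-0.162 to 0.0233) after BRD siRNA, for YAP1 (-0.0297 to 0.0971), TEAD2 (-0.0395 to 0.224), TEAD3 (-0.0769 to 0.0534) and VGLL3 (-0.0386 to 0.162) in DMSO against control siRNA, for TEAD1 between the YAP/TAZ mixes (-0.00793 to 0.0557), and for YAP1 (-0.0513 to 0.0755) and TEAD1 (-0.0879 to 0.0601) in JQ1 minus BRD siRNA. The count of factors higher after JQ1 was 1 to 2, and of factors lower in JQ1 minus BRD siRNA 1 to 3. After BRD siRNA 4 factors were higher with mix A alone. Between the BRD mixes the count lower was 2 with a pseudocount of 4 or edgeR and 3 with upper-quartile scaling or quantile normalization. The causes were not tested.

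The labels tie replicate numbers to no shared batch. Same-numbered libraries had deviations correlated at -0.37 to 0.25 over 21 pairs of groups (median -0.01). Whether same-numbered libraries of some groups were handled together was not tested. With the replicate block 10799 genes were called after YAP/TAZ siRNA (10793 without it), 10276 after BRD siRNA (10279) and 10117 after JQ1 (10104), and no call of a factor changed. On the recovered reads edgeR called 10616, 10160 and 10330 genes in these comparisons and DESeq2 10006, 9603 and 9793. Each group has 2 libraries. A chi-square per gene on the reads of these 2 was 10.75 in BRD mix A and 3.46 to 5.05 in the other groups. The fit shares the spread over all groups, so p-values that involve mix A may understate its spread. VGLL3 had the largest standard error of the 8 in every comparison, and an arm left with 1 library was assumed to vary like the other groups.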
